A study of Tachysurus vachellii with 6 samples.

Results

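The miR-146 family was measured in small RNA of extracellular vesicles from livers of Pelteobagrus vachellii (also Tachysurus vachellii), the darkbarbel catfish. Its members were the 10 entries, of 841 in the deposited table, whose names read miR-146 after the species prefix, with any letter, arm or variant suffix. The family was chosen by name at a time when hypoxia and normoxia values of its dre-miR-146a and ssa-miR-146b-3p entries were already known. The values of its members in that comparison are therefore a description and support nothing. The series holds 6 libraries, 3 labelled hypoxia, 4 h, for which dissolved oxygen was brought down to 1.0 mg/L with nitrogen, and 3 labelled normoxia, 4 h, where 6.8 mg/L is the level given for untreated water. All fish were of 1 purchased stock, acclimated and then fasted before treatment, and no genetic change or drug is named. No label says that a library came from its own fish, so the spread between libraries may be technical.

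miR-146 is a vertebrate miRNA that in mammals is switched on by the inflammatory transcription factor NF-kappaB and lowers the adaptor proteins IRAK1 and TRAF6 of Toll-like receptor signalling, which closes a feedback loop on inflammation. In zebrafish its genes respond to bacterial infection. A miRNA hairpin is cut into a 5p and a 3p strand. In miR-146 the 5p strand is the one usually kept to guide silencing, and its seed (bases 2 to 8) sets which messenger RNAs it binds. The letters a, b and d name related genes.

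The 10 sequences are shown because letters and arms differ in few bases. They are written 5′ to 3′ as deposited, with T for U and the seed in capitals.
dre-miR-146a: tGAGAACTgaattccatagatgg
dre-miR-146a_R-5: tGAGAACTgaattccata
ola-miR-146a-5p_1ss24TA: tGAGAACTgaattccatagatggaa
mmu-miR-146a-5p: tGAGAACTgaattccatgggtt
dre-miR-146b_R+1: tGAGAACTgaattccaagggtgt
ssa-miR-146d-5p: tGAGAACTgaattccaagggtt
dre-miR-146a_R-4_1ss6AC: tGAGACCTgaattccatag
dre-miR-146a_L-4: aACTGAATtccatagatgg
ssa-miR-146b-3p_R-1_2ss14AG20CT: aTCTATGGactcagttctttt
dre-mir-146b-p3: cCACGGAGttcagttcttaagt

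The prefixes name the species of the matched miRNA: zebrafish (dre), Atlantic salmon (ssa), medaka (ola) and mouse (mmu). Of the 8 entries of the 5p arm, 6 shared the seed GAGAACT, among them all 3 letters, and no entry outside the family held it. dre-miR-146a and dre-miR-146b_R+1 were identical over their first 16 bases. Counted from base 1 of dre-miR-146a, dre-miR-146b_R+1 differed by T17A, A18G, A20G and G23T, all 3′ of the seed. ssa-miR-146d-5p carried T17A, A18G and A20G as well, with G22T as its last difference. It thus differed from dre-miR-146b_R+1 only at the 3′ end, and whether it came from a gene of its own was not tested. mmu-miR-146a-5p was intermediate, with A18G, A20G and G22T. dre-miR-146a_R-5 lacked the last 5 bases of dre-miR-146a, and the ola-miR-146a-5p entry held all of it with 2 added bases. The remaining pair of 5p entries had other seeds, dre-miR-146a_L-4 because it began at base 5 and dre-miR-146a_R-4_1ss6AC because of A6C.

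The name of the more abundant 3p entry did not match its strongest predicted partner. The ssa-miR-146b-3p entry paired with dre-miR-146a over 18 base pairs at -23.7 kcal/mol, and with dre-miR-146b_R+1 over 17 at -18.8 kcal/mol. dre-mir-146b-p3 paired equally with dre-miR-146b_R+1 and ssa-miR-146d-5p, over 17 base pairs at -24.3 kcal/mol, against 15 at -22.8 kcal/mol with dre-miR-146a. These are duplex folds of the deposited strands in ViennaRNA, computed after the sequences had been seen. No hairpin was used here, so the gene from which each 3p strand came is not settled by them. No 3p entry carried the letter a.

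Library totals ranged from 2038299 to 8497215 estimated counts, and a count of 3 corresponded to 0.353 to 1.47 CPM, the unit of counts scaled to a common library size. The shallowest library, hypoxia replicate 1, stood apart with 462 entries detected against 643 to 725 in the other 5. Liver identity was clear from miR-122, the main hepatocyte miRNA, with tni-miR-122_R-1 at 246967 ± 6027 CPM (SD, n = 3) in the normoxia group. CPM here uses library totals scaled with TMM factors (edgeR). A miRNA read spans the whole molecule, so levels of members can be set side by side without a length correction, although equal recovery of different sequences was not tested.

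The 5p strand of letter a was nearly all of the family. dre-miR-146a took 3.69 ± 0.31% of all counts in normoxia and 2.88 ± 0.22% in hypoxia (SD, n = 3 each), and it ranked between 5 and 10 of 841 entries in every library. It made up 96.5% to 97.3% of the family's CPM in the 6 libraries. In hypoxia replicates 1, 2 and 3 it stood at 26534, 31197 and 27375 CPM. In normoxia replicates 1, 2 and 3 it stood at 40331, 37917 and 34245 CPM. All 3 hypoxia libraries lay below all 3 normoxia libraries, with a log2 fold change of -0.40 ± 0.10 (SE), or 0.757-fold, and the entry did not pass the threshold of the whole table.

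The rarer forms of the letter a 5p strand lay far below the full strand. The 18-base dre-miR-146a_R-5 measured 24.3, 40.4 and 32.7 CPM in hypoxia and 40.8, 43.0 and 39.1 CPM in normoxia, so the groups overlapped (log2 fold change -0.31 ± 0.21). The full strand exceeded it by 773-fold to 1092-fold. The 25-base ola-miR-146a-5p entry ranged from 3.67 to 6.63 CPM in hypoxia and from 2.91 to 9.87 CPM in normoxia, again with overlap. Its log2 fold change of -0.55 ± 0.49 ranged from -0.90 (without normoxia replicate 3) to -0.23 (without normoxia replicate 1) with 1 library left out. The other 3 members were too rare to be tested, with at most 12 counts in any library. mmu-miR-146a-5p had 0, 10 and 5 counts in hypoxia and 11, 11 and 12 in normoxia. dre-miR-146a_R-4_1ss6AC was at 0 in 2 libraries and dre-miR-146a_L-4 in 3, and hypoxia replicate 1, the shallowest library, held a 0 for all 3. These entries differ from the full strand by a few bases and how the authors divided reads among them was not given in the sources used here, so their separate values are uncertain.

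The 5p strand of letter b showed no such separation. dre-miR-146b_R+1 measured 710, 648 and 570 CPM in hypoxia replicates 1, 2 and 3. In normoxia replicates 1, 2 and 3 it measured 714, 684 and 591 CPM. The groups overlapped almost wholly, with means of 642 ± 70.1 and 663 ± 64.4 CPM (SD, n = 3 each) and a log2 fold change of -0.05 ± 0.14. ssa-miR-146d-5p, the only entry of letter d, stood at 33.5, 22.8 and 19.5 CPM in hypoxia and 23.3, 25.6 and 15.6 CPM in normoxia. Its groups overlapped too, with a log2 fold change of 0.20 ± 0.27 that ranged from 0.02 (without hypoxia replicate 1) to 0.38 (without hypoxia replicate 3) with 1 library left out.

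Both 3p strands were lower in every hypoxia library than in any normoxia library. The ssa-miR-146b-3p entry measured 164, 217 and 178 CPM in hypoxia replicates 1, 2 and 3. In normoxia replicates 1, 2 and 3 it measured 300, 278 and 344 CPM. The means were 186 ± 27.4 and 307 ± 33.6 CPM (SD, n = 3 each), a log2 fold change of -0.72 ± 0.16 (SE). This member alone passed the threshold, and only narrowly. It did not pass with total counts only (-0.68), with upper-quartile factors (-0.67) or with sequences kept apart (-0.71). It also did not pass with replicate numbers as a block (-0.73), with offsets for GC content and length (-0.59) or with both (-0.59). The rarer dre-mir-146b-p3 measured 19.4, 31.4 and 20.9 CPM in hypoxia and 35.2, 38.1 and 41.4 CPM in normoxia. Its log2 fold change was -0.66 ± 0.22, nearly the same size, and it did not pass.

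**Figure D1:**
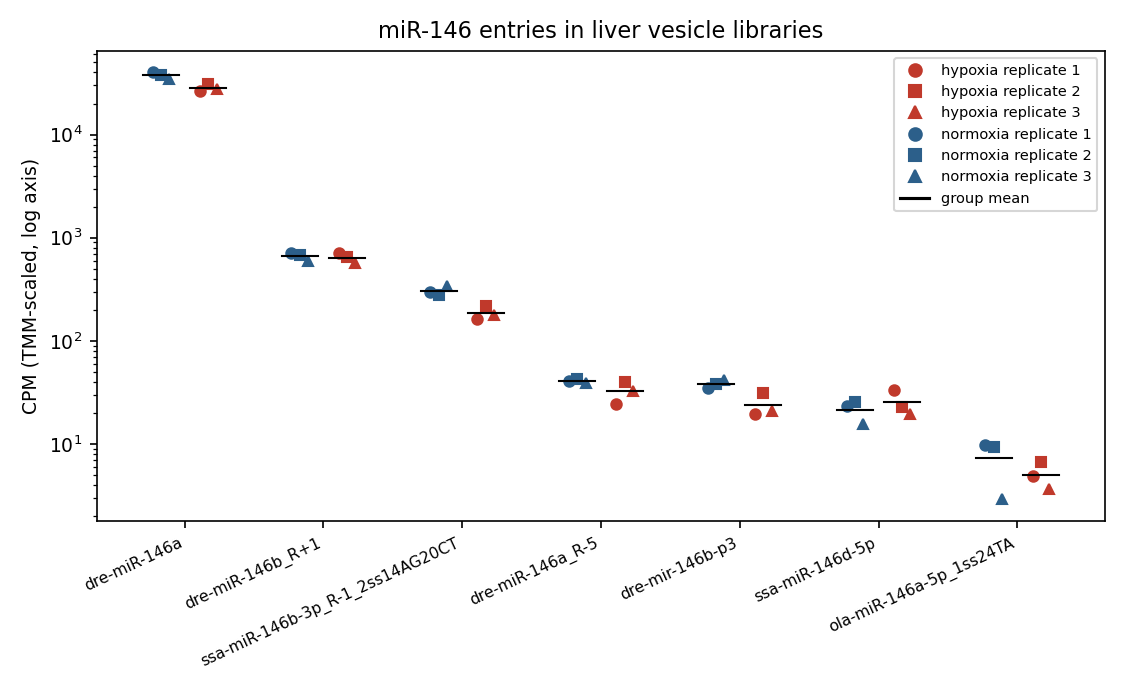
CPM of the 7 tested miR-146 entries (log axis) in each library, normoxia in blue and hypoxia in red, with a symbol per replicate and a line at the group mean. For dre-miR-146a, the ssa-miR-146b-3p entry and dre-mir-146b-p3 the red points all lie below the blue points, while for dre-miR-146b_R+1 they span the same range.

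Of the 10 members, 7 passed the filter on low counts, and 1 of these 7 passed the threshold, in the lower direction. The threshold was an adjusted p of 0.05 over all entries (edgeR, Benjamini-Hochberg), which 14 of 519 tested entries passed (2.70%), 8 higher and 6 lower in hypoxia (1.16% lower). The 3 hypoxia libraries lay below the 3 normoxia libraries in 3 of the 7 tested members, and in 14.3% of all tested entries. The median log2 fold change was -0.40 over the 7 members and -0.04 over all 519, and 6 of the 7 and 55.3% of all lay below 0. Nothing is read from these counts, because values of this comparison were known when the family was chosen and the members share most of their bases.

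**Figure D2:**
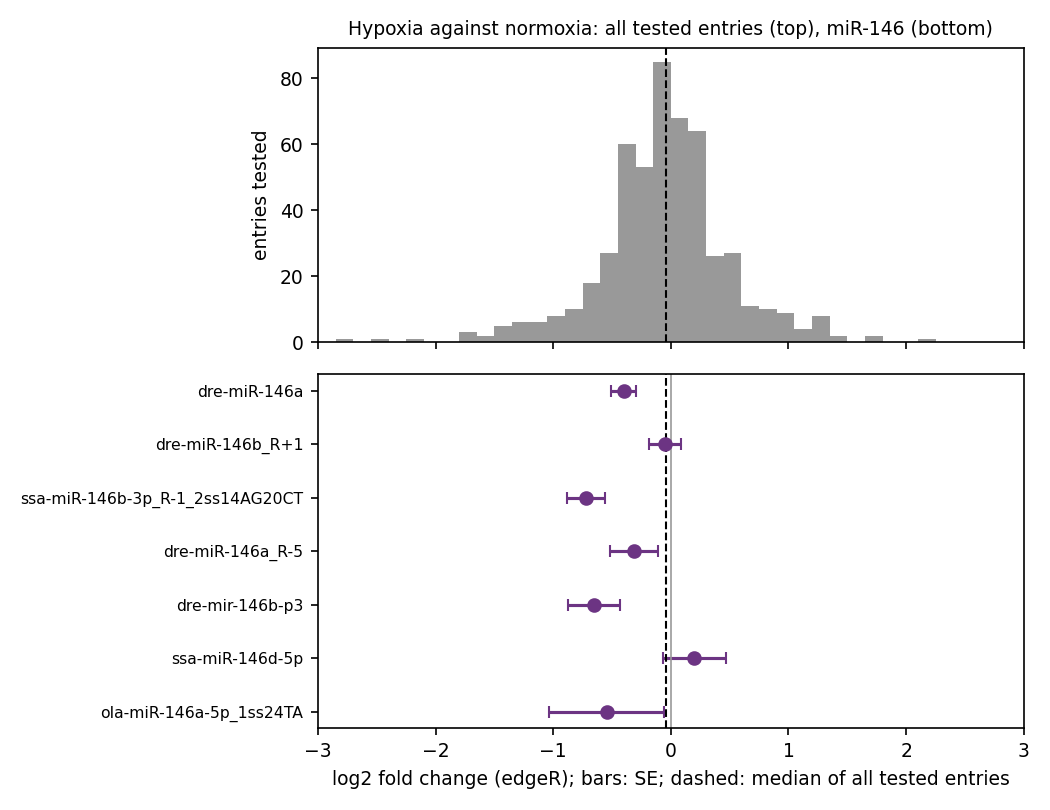
Log2 fold changes between hypoxia and normoxia. The histogram counts all 519 tested entries, of which 1 lies outside the axis, and the lower panel gives the 7 tested miR-146 entries with bars of 1 SE and a dashed line at the median of all entries (-0.04). The 3p strands lie lowest, at -0.72 and -0.66, and dre-miR-146b_R+1 lies on the dashed line.

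Summed over its 10 entries, the family stood at 27490, 32165 and 28201 CPM in hypoxia and at 41456, 38998 and 35282 CPM in normoxia. The means were 29285 ± 2519 and 38578 ± 3108 CPM (SD, n = 3 each), a ratio of 0.759. Since dre-miR-146a made up nearly all of this sum, it says little on the other members. The 8 entries of the 5p arm gave a ratio of 0.760 between the group means, and the 2 entries of the 3p arm a ratio of 0.608, from 210 ± 33.9 and 346 ± 35.8 CPM. Letter a, with 6 entries, gave 0.757. Letter b as named, with 3 entries, gave 0.845 (852 ± 72.8 against 1008 ± 37.0 CPM), a value that mixes a 5p strand with overlapping groups and both lower 3p strands.

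Within a library, letters and arms can be compared without reference to the treatment. Of 7 ratios computed, 5 were tested over the 6 libraries. Each of the 5 was above 1 in 6 of 6 libraries and reached p = 0.03125 in an exact two-sided sign-flip permutation test, the smallest p it can give. Benjamini-Hochberg adjustment leaves equal p-values unchanged. With all 6 libraries above 1 the test always gives this p, so it adds nothing to that count. The ratios also share entries, and the libraries may be technical repeats. dre-miR-146a exceeded dre-miR-146b_R+1 50.0-fold (geometric mean, log2 5.65 ± 0.24, SD, n = 6). It exceeded the ssa-miR-146b-3p entry, its stronger predicted partner, 137-fold (log2 7.10 ± 0.25). Among entries named for letter b, dre-miR-146b_R+1 exceeded dre-mir-146b-p3 21.8-fold (log2 4.44 ± 0.47). It exceeded the ssa-miR-146b-3p entry 2.73-fold (log2 1.45 ± 0.45). That entry paired more strongly with dre-miR-146a, so the 2.73-fold may not compare arms of the same gene. The ssa-miR-146b-3p entry exceeded dre-mir-146b-p3 7.97-fold (log2 2.99 ± 0.13).

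The same ratios, split by treatment, are given as values without a test. The ratio of dre-miR-146a to dre-miR-146b_R+1 was 37.4, 48.2 and 48.0 in hypoxia and 56.5, 55.4 and 58.0 in normoxia. Every hypoxia library was thus lower, and hypoxia replicate 1 was the lowest. The ratio of dre-miR-146b_R+1 to dre-mir-146b-p3 was 36.5, 20.6 and 27.3 in hypoxia and 20.3, 17.97 and 14.3 in normoxia. Here every hypoxia library was higher, with hypoxia replicate 2 close to normoxia replicate 1. dre-miR-146a over the ssa-miR-146b-3p entry gave 162, 143.96 and 154 in hypoxia and 135, 136 and 99.5 in normoxia, also without overlap. dre-miR-146b_R+1 over the same entry gave 4.33, 2.99 and 3.21 in hypoxia and 2.38, 2.46 and 1.72 in normoxia, again higher in every hypoxia library. The ratio of the 3p strands to each other was 8.43, 6.91 and 8.50 in hypoxia and 8.52, 7.30 and 8.30 in normoxia, with overlap. Each ratio without overlap held dre-miR-146a or a 3p strand, whose own groups did not overlap, so it adds little to those values. The share of such ratios among other pairs of entries was not counted.

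**Figure D3:**
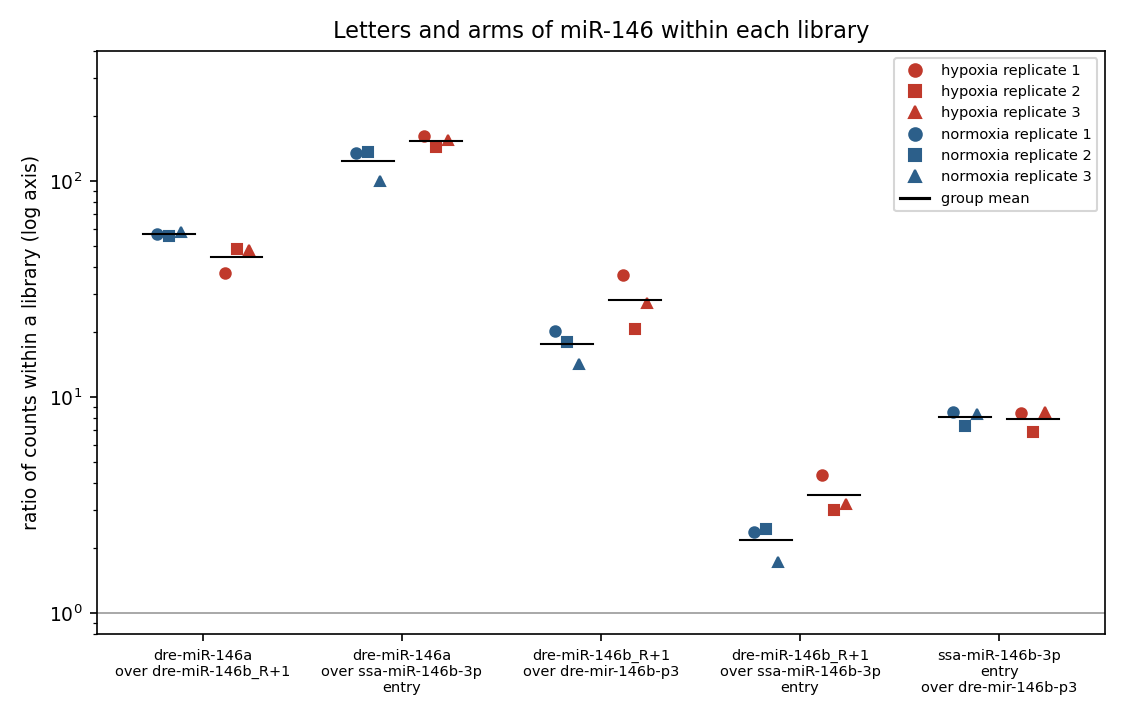
Ratios of counts within each library (log axis) for 5 pairs of miR-146 entries, normoxia in blue and hypoxia in red, with a line at the group mean and a grey line at 1. All points lie above 1, and the ratio of the 3p strands, at 6.91 to 8.52, is the only one whose groups overlap. Each other ratio holds dre-miR-146a or a 3p strand, whose own groups did not overlap.

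Across the 6 libraries the log2 CPM of the 3p strands, both named for letter b, correlated with each other at a Pearson r of 0.96. dre-miR-146a correlated with each of them at 0.87 and with its shorter form dre-miR-146a_R-5 at 0.82. dre-miR-146b_R+1 correlated with dre-mir-146b-p3 at 0.04, with the ssa-miR-146b-3p entry at 0.002, with dre-miR-146a at 0.34 and with ssa-miR-146d-5p at 0.81. These values describe 6 libraries in 2 groups that share depth and composition, and no test is attached to them.

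Outside the family, 323 tested entries averaging 10 CPM or more were ranked by the same measure. The patterns most like dre-miR-146a were those of PC-3p-18261_989 (r = 0.99), mmu-miR-6240_L-1R-6_1ss2CT (0.97), ola-miR-22_R+1 (0.96), oni-miR-135a_R+1 (0.96) and dre-miR-30b_3ss19-T20-C24TG (0.95). For the ssa-miR-146b-3p entry they were PC-5p-29317_459 (0.99), gmo-miR-20a-5p (0.97), dre-miR-26a-5p_R+2 (0.96), dre-miR-135c_R+1 (0.96) and dre-miR-462_R+1 (0.96). For dre-miR-146b_R+1 they were PC-3p-19868_866 (0.94), aca-miR-222b-3p_R-1_2ss22TC23TA (0.87), dre-miR-19b-3p_R-1 (0.80), dre-miR-19a-3p (0.77) and ssa-miR-142b-5p_R-1_2ss14GA17TC (0.73). For ssa-miR-146d-5p they were aca-miR-222b-3p_R-1_2ss22TC23TA (0.92), cpo-miR-301a-3p_R-2 (0.91), dre-miR-301c-3p_R+1 (0.89), dre-miR-216a (0.88) and dre-miR-30e-5p_R+2 (0.87). Likeness in pattern was not likeness in size. The entries named for dre-miR-146a had log2 fold changes from -1.61 to -0.32, against its own -0.40. Those named for the ssa-miR-146b-3p entry had negative log2 fold changes as well. For both members r thus partly repeats the difference between the groups. Each r is also among the highest of 323 over 6 libraries, and no test is attached to it.

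Other miRNAs linked to inflammation and NF-kappaB were taken from a list of 10 families (miR-9, miR-21, miR-125, miR-132, miR-147, miR-155, miR-181, miR-187, miR-212 and miR-223). Of 25 tested entries 0 passed in either direction, against 2.70% of all tested entries. At that share a count of 0 among so few entries says little. The median log2 fold change was -0.01, against -0.04 over all tested entries. miR-147 and miR-187 had no entry. oni-miR-21, a miRNA raised in many injured tissues, averaged 19220 ± 1195 CPM under hypoxia and 19399 ± 1626 CPM under normoxia (SD, n = 3 each), a log2 fold change of -0.01 ± 0.10. dre-miR-181a-5p, known from lymphocyte development in mice, lay at -0.14 ± 0.11, dre-miR-181b-5p_R+1 at 0.20 ± 0.12 and dre-miR-125b-5p at 0.03 ± 0.15. miR-155, which in mammals is induced by the same signalling as miR-146, ranged from 77.7 to 117 CPM in hypoxia and from 93.1 to 110 CPM in normoxia.

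In bulk vesicle RNA, fewer vesicles of a cell type and less of a miRNA per vesicle cannot be told apart, and miR-146 is abundant in leukocytes. The leukocyte miRNAs miR-142, miR-150, miR-155 and miR-223 summed to 3667 to 4026 CPM in hypoxia and 3552 to 4262 CPM in normoxia. These ranges overlapped, and none of the 4 families was at 0. Passing entries were 0 of 6 tested, against 2.70% of all tested entries, so this count too says little. The median log2 fold change of these entries was -0.14, against -0.04 over all tested entries. Of the 6, 5 lay below 0, against 55.3% of all. The lowest, ipu-miR-223_R-1 at -1.57, was not among the 4 most abundant. dre-miR-142a-3p_R-1 was the only one of the 4 most abundant of these entries whose groups did not overlap. It lay at 235 to 316 CPM in hypoxia and 322 to 383 CPM in normoxia (log2 fold change -0.26 ± 0.16). Over all tested entries, 14.3% had all hypoxia libraries below all normoxia libraries, so 1 such entry says little. dre-miR-150_R+1, a lymphocyte miRNA, lay at 0.01 ± 0.14, dre-miR-223_R+1, a myeloid miRNA, at -0.24 ± 0.17 and ssa-miR-142b-5p_R-1_2ss14GA17TC at -0.05 ± 0.16.

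The summed levels of 3 other marker lists did not overlap between groups. For single tested entries, all hypoxia libraries lay below all normoxia libraries in 14.3%. The share lying above, and the share for sums, were not counted. Over all 519 tested entries, 14 passed the threshold (2.70%), 8 of them higher in hypoxia. Erythrocyte miRNAs (miR-144, miR-451 and miR-486) summed to 7203 to 9174 CPM in hypoxia and 4842 to 5917 CPM in normoxia, with 2 of 7 tested entries passing, both higher: dre-miR-451 at 0.60 ± 0.13 and gmo-miR-144-3p at 1.09 ± 0.23. oni-miR-144a_L-1R+1_1ss11TA lay at 0.35 ± 0.20 and dre-mir-451-p3 at 0.02 ± 0.17, both with overlapping groups. The list was not uniform, since miR-486 was lower in hypoxia, at 7.78 to 12.1 CPM against 13.1 to 31.99 CPM. Endothelial miR-126 summed to 15768 to 17733 CPM and 11829 to 13516 CPM, with 0 of 4 passing, oni-miR-126 at -0.03 ± 0.20 and the more abundant gmo-miR-126-3p_R-1 at 0.39 ± 0.10. Epithelial miRNAs (miR-200, miR-203, miR-205 and miR-429, with no entry for miR-141) summed to 2549 to 2956 CPM and 3017 to 3372 CPM, with 0 of 12 passing. miR-200 made up most of that sum, while miR-203, miR-205 and miR-429 each overlapped between groups. Of the 12 tested entries 8 lay below 0. The most abundant, dre-miR-200a-3p_R+1 (-0.30 ± 0.13) and dre-miR-200b-3p (-0.27 ± 0.14), were among these, each with overlapping groups. ipu-miR-200c_R-1 (0.17 ± 0.17) and ccr-miR-205_R+1 (0.15 ± 0.19) lay above 0. Hepatocyte and muscle sums overlapped between groups, at 238952 to 288063 CPM against 278889 to 290079 CPM and at 732 to 976 CPM against 769 to 810 CPM, with 0 of 11 and 0 of 6 entries passing. The part of these shifts in the miR-146 values was not tested. For scale, dre-miR-210-3p_R-2, the best known hypoxia-induced miRNA, lay at 1.25 ± 0.17.

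The miR-146 sequences held 33.3% to 45.5% G and C, with 39.1% in dre-miR-146a and 33.3% in the ssa-miR-146b-3p entry, against a median of 45.5% over all tested entries. Within each library, the deviation of log2 CPM from the entry's mean over the 6 libraries was fitted jointly on GC content and length. Entries averaging 10 CPM or more were used. Per 10 points of GC the slopes were 0.110, -0.063 and 0.112 in the hypoxia libraries (replicates 1, 2 and 3). The normoxia libraries gave -0.010, -0.079 and -0.070. Per base of length the slopes were -0.005, -0.066 and -0.03 in hypoxia and 0.079, 0.043 and -0.021 in normoxia. With offsets for trends on GC content and length, the log2 fold change of dre-miR-146a was -0.19 ± 0.09, against -0.40 ± 0.10 without them. The 3p strands then lay at -0.59 ± 0.13 and -0.59 ± 0.20, and dre-miR-146b_R+1 at 0.12 ± 0.13. dre-miR-146a_R-5 moved the other way, from -0.31 ± 0.21 to -0.43 ± 0.18. The ola-miR-146a-5p entry moved from -0.55 ± 0.49 to -0.14 ± 0.44, and ssa-miR-146d-5p from 0.20 ± 0.27 to 0.32 ± 0.28. With these offsets 3 of 519 tested entries passed, 3 higher and 0 lower in hypoxia. None of the 7 tested members was among them, which at that share says little. The parts of GC content and of length were not tested apart.

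The call of the ssa-miR-146b-3p entry depended on which libraries were included. With 1 library left out at a time its log2 fold change ranged from -0.83 to -0.59. It passed without hypoxia replicate 2, which held its highest hypoxia value, and did not pass without hypoxia replicate 1 or 3 or without normoxia replicate 1, 2 or 3. In the leave-out fits where it did not pass, 0 to 5 entries of the whole table passed. Of these 0 were lower in hypoxia, so every lower call was lost there, not only that of this entry. Leaving out hypoxia replicate 1 gave -0.59 for this entry, -0.31 for dre-miR-146a, -0.50 for dre-mir-146b-p3 and -0.12 for dre-miR-146a_R-5. Without hypoxia replicate 2, 52 of 540 tested entries passed, against 14 of 519 in the reported fit. Among them dre-miR-146a and dre-mir-146b-p3 passed as well, at -0.46 and -0.90. No direction of these 3 members could reverse when 1 library was left out, because their groups did not overlap.

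**Figure D4:**
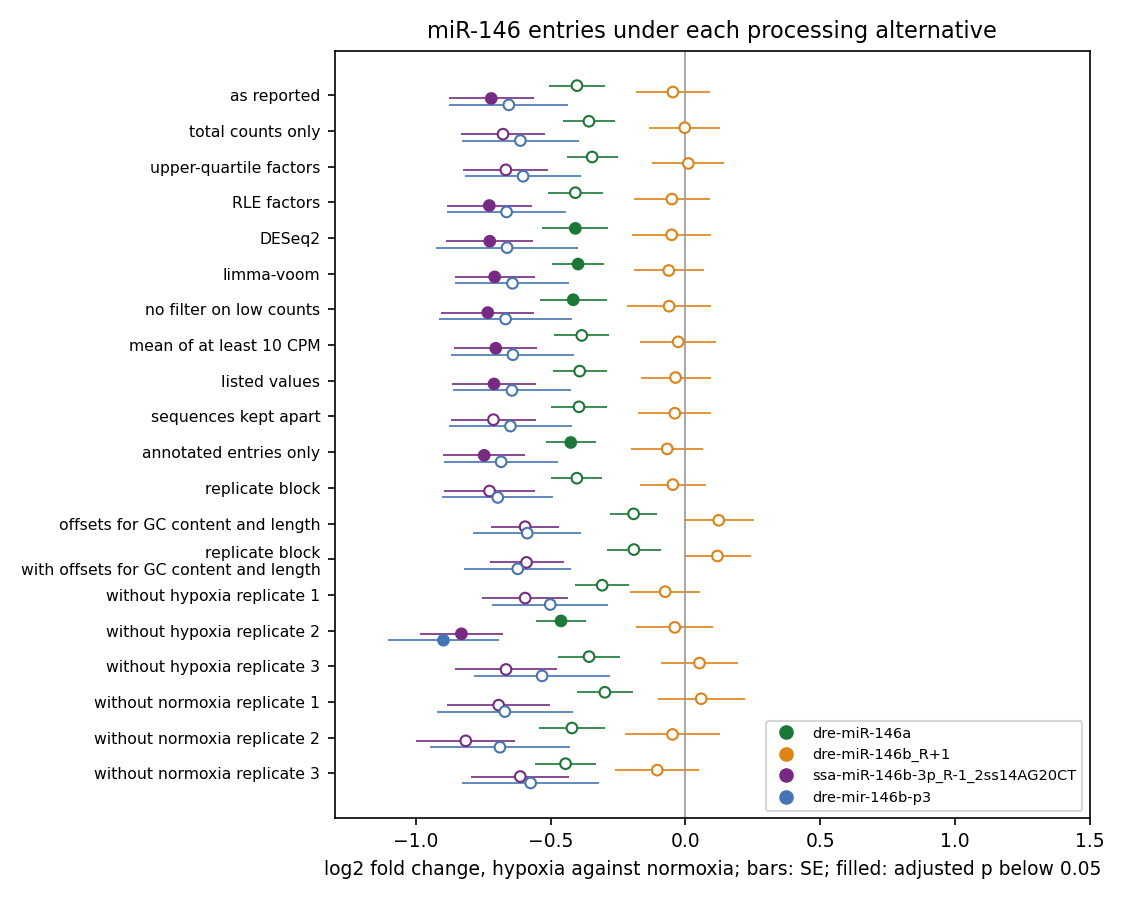
Log2 fold change between hypoxia and normoxia (x axis, bars of 1 SE) of 4 miR-146 entries under each processing alternative (y axis). Filled points passed an adjusted p of 0.05. The 3p strands lie lowest under every setting, dre-miR-146a moves from -0.40 to -0.19 with offsets for GC content and length, and dre-miR-146b_R+1 lies near 0.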

How the data were processed

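Small RNA of liver vesicles was sequenced in 6 libraries on a NovaSeq X Plus instrument, per the labels' protocols. The authors deposited 1088 rows of unscaled estimated counts. The aligner, caller and build were not given in the sources used here. Listings of 1 sequence held identical values and were summed. Sequences of 1 precursor with identical values were joined in 18 cases, which left 841 entries. No miR-146 row was summed or joined, but the summing raised the library totals behind each CPM and percentage. Of the members' 54 nonzero values, 6 were not whole within 1e-06. Values were rounded and tested in edgeR 4.0.16 (filterByExpr, TMM, then glmQLFTest on 2 groups with no block), with Benjamini-Hochberg adjustment over 519 entries. Each SE follows from the fold change and its F statistic. The fit was checked on simulated counts. Log2 CPM used a prior count of 2. Duplexes were folded with ViennaRNA 2.7.2.

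The members and lists were chosen with earlier results of these data known. Named were all members and the 5 entries most like each leading member. From each list up to 4 entries were named, those past the threshold first and then by level. ipu-miR-223_R-1 was added as the lowest of its list. Alternatives included DESeq2 1.42.0 and limma-voom (limma 3.58.1). No molecular identifiers are mentioned, so floors cover counting error only.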

Additional observations from a re-analysis of the deposited data

How the results depend on the processing

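The number of entries past the threshold depended on the processing: against 14 in the reported fit it was 13 with upper-quartile factors (10 higher, 3 lower), 5 without scaling factors (5 higher, 0 lower), 41 with DESeq2, 22 with limma-voom, 59 with no filter on low counts, 3 with sequences kept apart and 3 with offsets for GC content and length. With 1 library left out it ranged from 0 (without normoxia replicate 2, edgeR, where 73 entries had an unadjusted p under 0.05) to 52 (without hypoxia replicate 2). The ssa-miR-146b-3p entry passed in 8 of 19 alternatives, dre-miR-146a in 5, dre-mir-146b-p3 in 1 and no other tested member in any. dre-miR-146b_R+1 turned positive with upper-quartile factors (0.011) and with GC and length offsets (0.12, also with the block), and ranged from -0.10 to 0.058 with 1 library left out. Cause was not tested.

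No label says that replicate numbers pair libraries. Same-numbered libraries correlated at -0.129, -0.055 and -0.046 in their deviations from the group means, and 0 of 6 libraries correlated best with their own number. A check on so few libraries cannot exclude a pairing. With the replicate block 7 entries passed, and 4 with the offsets added, and the ssa-miR-146b-3p entry (-0.73 with the block) was not among them.

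With 5 libraries the sign-flip test cannot go below 0.0625, so ratios are given as log2 ranges with 1 library left out: 5.60 to 5.73 (dre-miR-146a over dre-miR-146b_R+1), 7.05 to 7.19 (over the ssa-miR-146b-3p entry), 4.30 to 4.57 (dre-miR-146b_R+1 over dre-mir-146b-p3), 1.32 to 1.59 (over the ssa-miR-146b-3p entry) and 2.97 to 3.03 (3p strands). With each sequence counted at 1 of its listings, which lowers the library totals, the family's hypoxia mean was 35230 CPM and its normoxia mean 46080 CPM. Depth limits the 3 rarest members, which had at most 12 counts in any library, against a floor of 3 counts.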
